A study of Mus musculus with 9 samples.

Results

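The rat major histocompatibility complex is called RT1, and its genes carry that prefix in the deposited count table. The members described here are all rows whose symbol begins with RT1, 54 in number, plus B2m, Tap1, Tap2, Tapbp, Cd74 and Ciita, which makes 60 of the 37203 rows. By symbol, 42 of the RT1 rows are class I, 11 are class II and RT1-V2-ps1 could not be placed. Enough counts for testing were found in 38 members, made up of 23 class I rows, 9 class II rows and the 6 partner genes, among 14581 rows tested in all. Of the other 22 members, 10 had 0 counts in all 9 libraries.

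Class I molecules sit on nearly all nucleated cells and show peptides from inside the cell to CD8 T cells and natural killer cells. A class I heavy chain pairs with beta-2-microglobulin (B2m) and is filled in the endoplasmic reticulum with peptides cut by the proteasome, carried in by the transporter Tap1/Tap2 and loaded with the help of tapasin (Tapbp). Class II molecules present engulfed material to CD4 T cells, are made mainly by macrophages, dendritic cells and B cells, need the invariant chain Cd74 for assembly, and are switched on by the transactivator Ciita. In the liver the resident Kupffer cells, the sinusoidal endothelium and hepatocytes all carry class I, whereas class II is largely a product of the immune cells.

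Liver RNA came from male Wistar rats, per the labels, in 3 groups of 3 libraries each. Normal rats received olive oil. Fibrosis rats received the liver toxin carbon tetrachloride (CCl4) at 50% in olive oil, 2 mL/kg, on a schedule that lasted 8 weeks. Schisandrin B rats received the same CCl4 course and, after 4 weeks of it, daily schisandrin B, a lignan of the Schisandra berry, for the remaining 4 weeks. The study dosed schisandrin B at 25 and 50 mg/kg, and the labels do not say which dose these libraries represent. The study had 8 animals per group, and no label states that each library is its own animal, so errors and p-values measure the spread between libraries only.

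Library totals ran from 10320299 to 16255167 counts, and a count of 3 corresponds to 0.176 to 0.287 CPM (counts-per-million after TMM scaling, the unit used below). Over all tested rows, each library's mean correlation with the others of its group was 0.982 in normal, 0.951 to 0.966 in fibrosis and 0.983 to 0.985 in schisandrin B. The hepatocyte marker sum (7 genes, led by Alb) was 222770 to 257732 CPM in normal, 61175 to 105774 CPM in fibrosis and 185653 to 205065 CPM in schisandrin B, so the defining markers of liver were abundant in every library. The Y-linked genes Kdm5d and Eif2s3y had 0 counts in every normal library but lay between 5.91 and 13.3 CPM in every other library, although the labels call all animals male. Ddx3y, the third Y-linked row counted, had 12, 12 and 32 counts in the normal libraries, and its group means of 1.48, 1.24 and 0.862 CPM overlapped between groups. Whatever sets the normal libraries apart in Kdm5d and Eif2s3y cannot be told apart from the effect of CCl4 in both comparisons with normal. Scaling by library totals in place of TMM moved the median of all tested rows by 0.43 (fibrosis against normal), -0.27 (schisandrin B against fibrosis) and 0.16 (schisandrin B against normal) on the log2 scale. Changes below are relative to the TMM centre.

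Many RT1 genes are near-identical copies, their number varies between rat haplotypes, and Wistar is an outbred stock. How reads that match several copies were shared is not given in the sources used here, so values of single RT1 rows are uncertain and the sums over a class are given beside them. Each row is compared between groups only, since no transcript lengths were used. In bulk liver RNA, fewer cells of a type and less RNA per cell cannot be told apart.

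Summed over its 42 rows, class I was lower in both CCl4 groups than in normal liver, whereas the class II sum overlapped between all groups. The class I sum was 2355, 2533 and 2266 CPM in the normal libraries, 1533, 1495 and 1393 CPM in fibrosis and 1481, 1293 and 1371 CPM in schisandrin B. Every normal library lay above every other library, while the fibrosis and schisandrin B ranges overlapped. The means were 2385 ± 136, 1474 ± 72.7 and 1382 ± 94.6 CPM (SD, n = 3), so fibrosis held 0.618 times and schisandrin B 0.579 times the normal level, as a description with no test. The class II sum over 11 rows was 480, 338 and 240 CPM in normal, 317, 189 and 249 CPM in fibrosis and 407, 249 and 328 CPM in schisandrin B. Its means of 353 ± 121, 252 ± 63.8 and 328 ± 79.2 CPM (SD, n = 3) differed by less than the spread within the normal group. The class I to class II ratio of the sums was 7.27 ± 2.27 in normal, 6.11 ± 1.60 in fibrosis and 4.34 ± 0.79 in schisandrin B (SD, n = 3), with overlapping values.

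**Figure D1:**
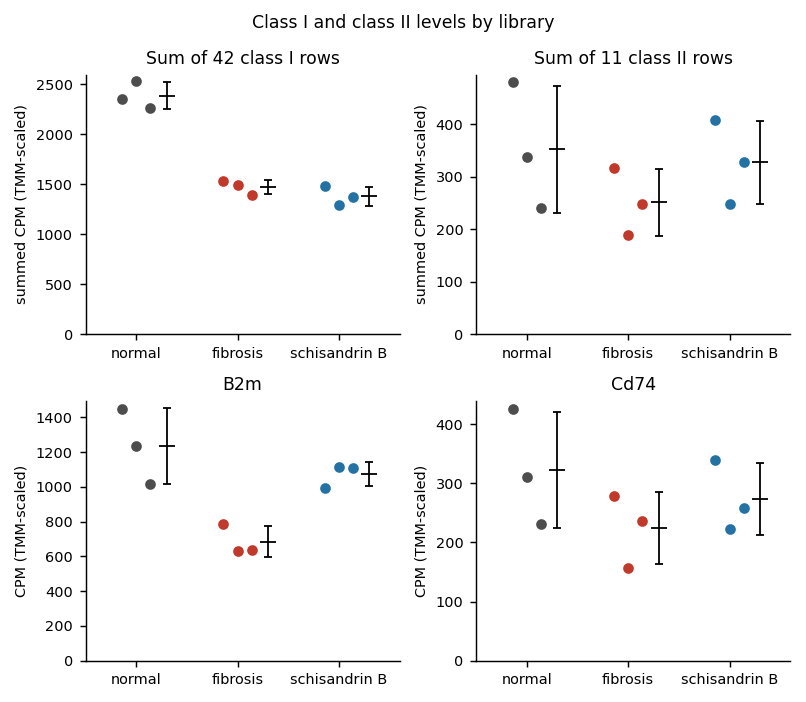
Summed CPM of the 42 class I rows and of the 11 class II rows, and CPM of B2m and Cd74, by group; points are libraries, and the dash with its bar is the mean ± SD. The 3 normal libraries lie above all others for class I, from 2266 to 2533 CPM, while the class II and Cd74 points of the groups overlap.

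The class I sum was split into 3 sets of rows. The 2 RT1-A rows, the classical class Ia region, summed to 632 ± 87.5, 513 ± 9.82 and 399 ± 19.3 CPM (SD, n = 3) in normal, fibrosis and schisandrin B. The 9 RT1-CE rows, class I genes of the RT1-C/E region, summed to 748 ± 41.5, 602 ± 49.7 and 429 ± 23.96 CPM (SD, n = 3). The 31 remaining class I rows summed to 1004 ± 57.6, 360 ± 24.2 and 554 ± 82.0 CPM (SD, n = 3). The RT1-A and RT1-CE sums were thus lowest in schisandrin B, at 0.630 and 0.574 times normal, and the remaining class I sum was lowest in fibrosis, at 0.358 times normal. The order of that last sum rests largely on 1 row, RT1-S3, with means of 596, 145 and 355 CPM in normal, fibrosis and schisandrin B. RT1-N2, its next largest row in normal, was instead lowest in schisandrin B, with means of 178, 73.8 and 55.5 CPM. As shares of all counts, without TMM scaling, RT1-A made up 0.0446% to 0.0627% in normal and 0.0547% to 0.0665% in fibrosis, and RT1-CE 0.0596% to 0.0720% and 0.0677% to 0.0739%. On that scale both sets were no longer lower in fibrosis than in normal, and both were still lowest in schisandrin B. The remaining class I rows made up 0.0819% to 0.0954% in normal on the same scale. Their shares of 0.0385% to 0.0443% in fibrosis and 0.0440% to 0.0627% in schisandrin B overlapped. None of these sums was tested.

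**Figure D2:**
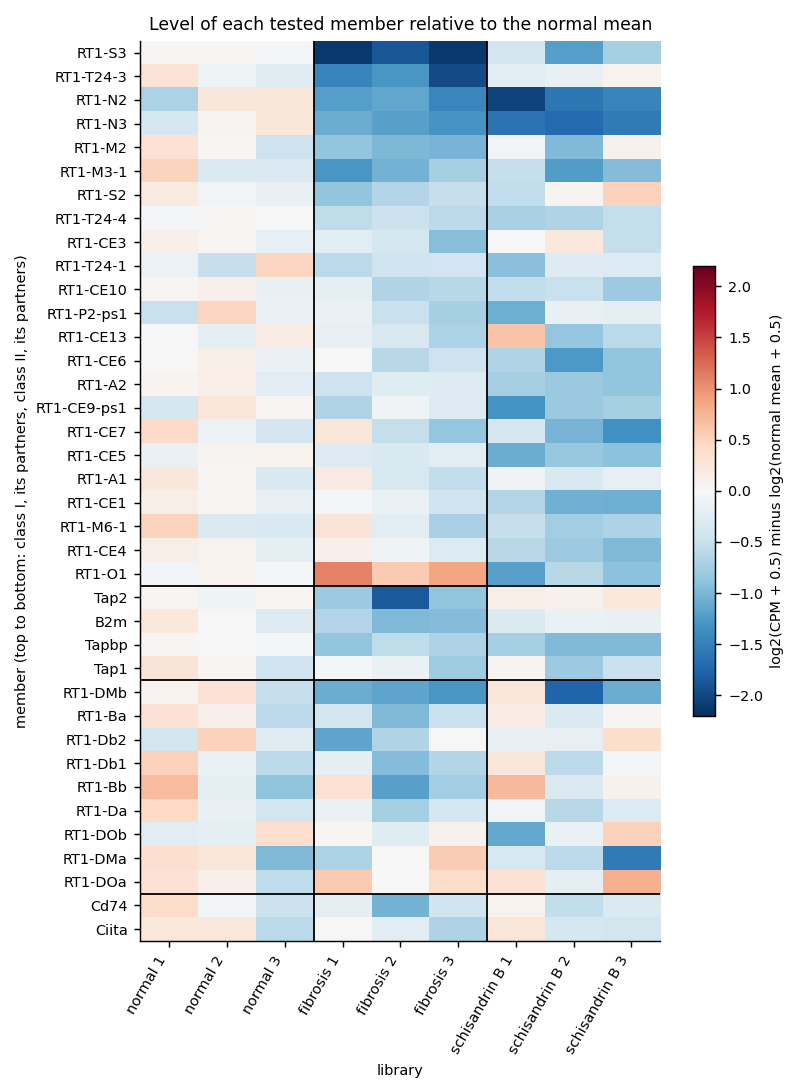
Level of each of the 38 tested members in each of the 9 libraries, as log2(CPM + 0.5) minus log2 of the normal mean + 0.5; blue is below and red above the normal mean. RT1-S3 is blue in fibrosis, most RT1-CE rows are bluest in schisandrin B, and RT1-O1 is red in fibrosis.

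Fibrosis against normal liver sets the CCl4 course beside olive oil, and the Kdm5d and Eif2s3y difference lies between the same groups. Here 8 of 23 tested class I rows fell and 1 rose, while 1 of 9 class II rows fell. RT1-S3 fell furthest, B2m, Tap2 and Tapbp fell with it, and Tap1, Cd74 and Ciita did not pass the test. A row was called where the adjusted p of edgeR's quasi-likelihood test was under 0.05, and rose and fell are used for such rows only. Over all members 12 of 38 were lower and 1 was higher, against 22.9% lower and 25.4% higher among all rows tested. The median log2 change was -0.47 over the 38 members, -0.45 over class I and -0.40 over class II, beside 0.03 over all rows. With library totals in place of TMM, 4 members were lower and 1 higher, and the medians were -0.04 over the members and -0.01 over class II, beside 0.46 over all rows.

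RT1-S3, a nonclassical class I row, had 608, 605 and 576 CPM in normal, 137, 161 and 136 CPM in fibrosis and 448, 259 and 358 CPM in schisandrin B. The 3 groups did not overlap, with normal highest and fibrosis lowest. The fall in fibrosis was -2.04 ± 0.22 (log2, SE; edgeR adjusted p = 2.96e-05). Against fibrosis, schisandrin B was higher by 1.29 ± 0.22 (edgeR adjusted p = 0.000599), and against normal it was lower by -0.75 ± 0.22 (edgeR adjusted p = 0.0473). The last call was lost when any of 5 libraries was left out (all 3 normal, schisandrin B 2 or schisandrin B 3), with edgeR adjusted p from 0.110 to 0.177. RT1-S3 made up 25.0% ± 1.01 of the class I sum in normal, 9.84% ± 0.90 in fibrosis and 25.5% ± 5.15 in schisandrin B (SD, n = 3).

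RT1-T24-3, another nonclassical row, had 49.8, 37.4 and 33.4 CPM in normal, 14.4, 16.2 and 9.92 CPM in fibrosis and 33.7, 35.9 and 42.5 CPM in schisandrin B. All fibrosis libraries lay below all others, and the normal and schisandrin B ranges overlapped. It fell in fibrosis by -1.57 ± 0.23 (log2, SE; edgeR adjusted p = 0.000179) and was higher in schisandrin B than in fibrosis by 1.47 ± 0.22 (edgeR adjusted p = 0.000309). Its difference between schisandrin B and normal was -0.10 ± 0.22 (edgeR adjusted p = 0.815).

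RT1-N2 and RT1-N3, class I rows of the N region, fell in fibrosis and were also below normal in schisandrin B. RT1-N2 had 110.0, 211 and 212 CPM in normal, 76.1, 79.8 and 65.5 CPM in fibrosis and 43.1, 58.9 and 64.5 CPM in schisandrin B. RT1-N3 had 47.7, 65.1 and 73.5 CPM in normal, 28.8, 26.8 and 25.0 CPM in fibrosis and 19.9, 18.5 and 20.9 CPM in schisandrin B. For both rows the 3 groups were ordered normal, fibrosis, schisandrin B without overlap. RT1-N2 fell by -1.27 ± 0.26 in fibrosis (log2, SE; edgeR adjusted p = 0.00179) and RT1-N3 by -1.21 ± 0.18 (edgeR adjusted p = 0.000262). The further step from fibrosis to schisandrin B was -0.41 ± 0.25 for RT1-N2 (edgeR adjusted p = 0.209) and -0.44 ± 0.18 for RT1-N3 (edgeR adjusted p = 0.0653). Both passed with library totals (edgeR adjusted p = 0.0368 and 0.00768), and RT1-N3 with only the 2 groups fitted (0.0486). Against normal, schisandrin B was lower by -1.68 ± 0.26 for RT1-N2 (edgeR adjusted p = 0.00235) and by -1.65 ± 0.18 for RT1-N3 (edgeR adjusted p = 0.000282).

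RT1-O1 was the only tested class I row called higher in fibrosis. It had 9.45, 10.4 and 9.64 CPM in normal, 21.5, 14.8 and 18.4 CPM in fibrosis and 4.01, 6.27 and 5.02 CPM in schisandrin B, with no overlap between the groups. The rise in fibrosis was 0.89 ± 0.22 (log2, SE; edgeR adjusted p = 0.00580). Schisandrin B was lower than fibrosis by -1.83 ± 0.23 (edgeR adjusted p = 8.86e-05) and lower than normal by -0.94 ± 0.23 (edgeR adjusted p = 0.0247). Leaving out normal 1, 2 or 3 or schisandrin B 1 or 3 lost the call against normal, with edgeR adjusted p from 0.0583 to 0.0961.

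**Figure D3:**
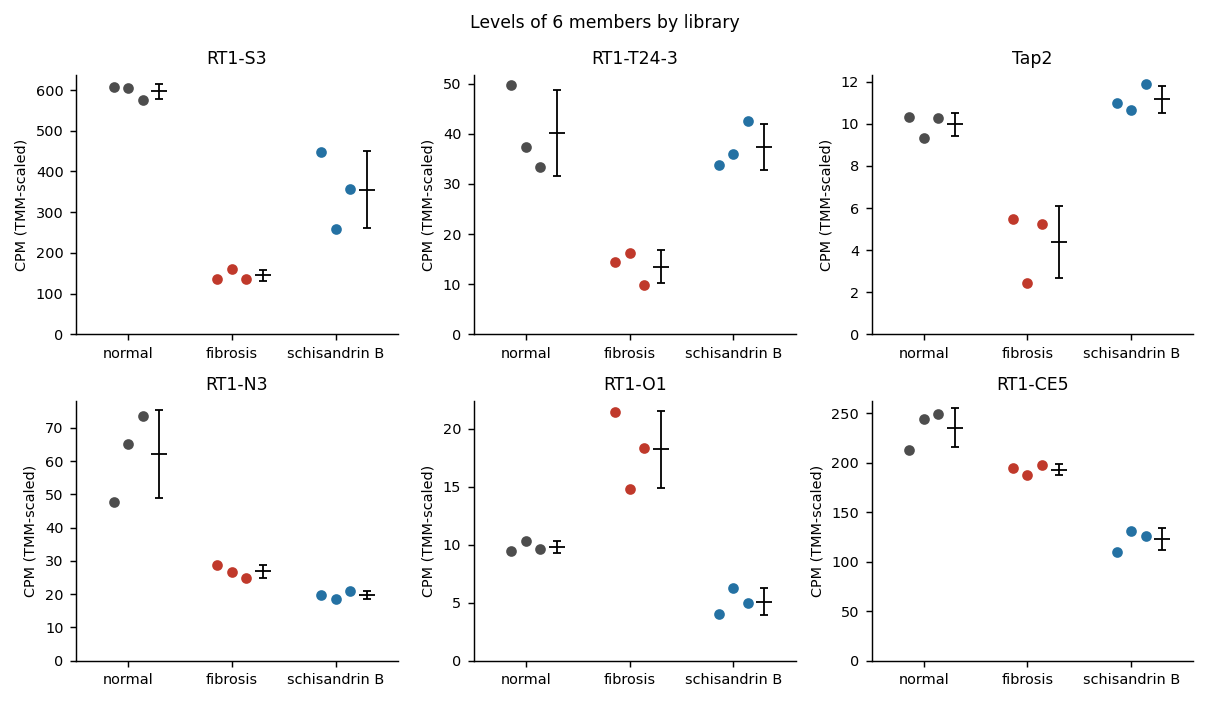
CPM of RT1-S3, RT1-T24-3, Tap2, RT1-N3, RT1-O1 and RT1-CE5 in each library; points are libraries, and the dash with its bar is the mean ± SD. RT1-S3, RT1-T24-3 and Tap2 are lowest in fibrosis, RT1-N3 and RT1-CE5 are lowest in schisandrin B, and RT1-O1 is highest in fibrosis.

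The other class I rows called in fibrosis were RT1-T24-4, RT1-CE10, RT1-M2 and RT1-M3-1, all lower. RT1-T24-4 had 55.1, 57.6 and 57.2 CPM in normal, 38.1, 40.5 and 38.1 CPM in fibrosis and 34.2, 35.7 and 39.4 CPM in schisandrin B. Its fall in fibrosis was -0.54 ± 0.14 (log2, SE; edgeR adjusted p = 0.00823), and it was also lower in schisandrin B than in normal, by -0.64 ± 0.14 (edgeR adjusted p = 0.0167). RT1-M3-1, whose mouse counterpart presents formylated bacterial peptides, averaged 5.80 ± 2.19, 2.66 ± 0.60 and 2.95 ± 0.88 CPM (SD, n = 3) and fell in fibrosis by -1.11 ± 0.35 (edgeR adjusted p = 0.0207). RT1-M2 averaged 3.50 ± 1.02, 1.56 ± 0.12 and 2.87 ± 1.18 CPM (SD, n = 3) and fell by -1.16 ± 0.39 (edgeR adjusted p = 0.0277). Against fibrosis, schisandrin B was called higher in RT1-M2 only without schisandrin B 2 (edgeR adjusted p = 0.0278). RT1-CE10, at 166, 175 and 144 CPM in normal and 138, 101 and 105 CPM in fibrosis, fell by -0.49 ± 0.18 (edgeR adjusted p = 0.0450). Leave-one-out fits lost the fibrosis call of RT1-CE10 for 5 libraries (edgeR adjusted p 0.0522 to 0.125; all but fibrosis 1), of RT1-M2 for 4 (0.0637 to 0.103; normal 1 and 2, fibrosis 2 and 3) and of RT1-M3-1 for 2 (0.0540 to 0.108; normal 1, fibrosis 2). With library totals RT1-CE10 gave -0.07 (edgeR adjusted p = 0.752), and RT1-M2 (0.147) and RT1-M3-1 (0.171) missed the threshold too. RT1-CE10 was also lost without the filter (edgeR adjusted p = 0.0879) and with only the 2 groups fitted (0.0764).

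Among the partners of class I, the light chain B2m had 1450.2, 1238 and 1014 CPM in normal, 787, 629 and 639 CPM in fibrosis and 993, 1117 and 1106 CPM in schisandrin B. All fibrosis libraries lay below all others, and the normal and schisandrin B ranges overlapped. B2m fell in fibrosis by -0.85 ± 0.20 (log2, SE; edgeR adjusted p = 0.00508) and was higher in schisandrin B than in fibrosis by 0.65 ± 0.20 (edgeR adjusted p = 0.0217). The higher level in schisandrin B did not pass the test without fibrosis 2 or 3 or schisandrin B 2 or 3 (edgeR adjusted p 0.0505 to 0.0691) or with library totals (0.126). Schisandrin B and normal differed by -0.20 ± 0.20 in B2m (edgeR adjusted p = 0.578).

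Of the 2 chains of the peptide transporter, Tap2 was called and Tap1 was not. Tap2 had 10.3, 9.35 and 10.3 CPM in normal, 5.505, 2.42 and 5.23 CPM in fibrosis and 10.99, 10.6 and 11.9 CPM in schisandrin B. Tap1 had 71.4, 60.2 and 43.1 CPM in normal, 57.0, 52.3 and 33.8 CPM in fibrosis and 61.1, 33.2 and 41.2 CPM in schisandrin B. Fibrosis libraries lay below all others for Tap2, and the groups overlapped for Tap1. Tap2 fell in fibrosis by -1.18 ± 0.28 (log2, SE; edgeR adjusted p = 0.00505) and was higher in schisandrin B than in fibrosis by 1.34 ± 0.28 (edgeR adjusted p = 0.00245). Tap1 gave -0.29 ± 0.27 (edgeR adjusted p = 0.406) and -0.08 ± 0.27 (edgeR adjusted p = 0.835) in the same comparisons, and the difference between the 2 genes was not tested.

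Tapbp, the tapasin bridge between the transporter and class I, had 72.2, 70.03 and 67.6 CPM in normal, 37.97, 47.6 and 43.6 CPM in fibrosis and 42.05, 35.6 and 35.4 CPM in schisandrin B. Every normal library lay above every CCl4 library, and the fibrosis and schisandrin B ranges overlapped. It fell in fibrosis by -0.70 ± 0.16 (log2, SE; edgeR adjusted p = 0.00317) and was lower in schisandrin B than in normal by -0.89 ± 0.16 (edgeR adjusted p = 0.00472). Schisandrin B against fibrosis gave -0.19 ± 0.16 (edgeR adjusted p = 0.332). With library totals in place of TMM, the fibrosis falls of B2m, Tap2, Tapbp and RT1-T24-4 also no longer passed the test, at edgeR adjusted p = 0.0823, 0.0583, 0.246 and 0.571, although none of the 4 changed sign.

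**Figure D4:**
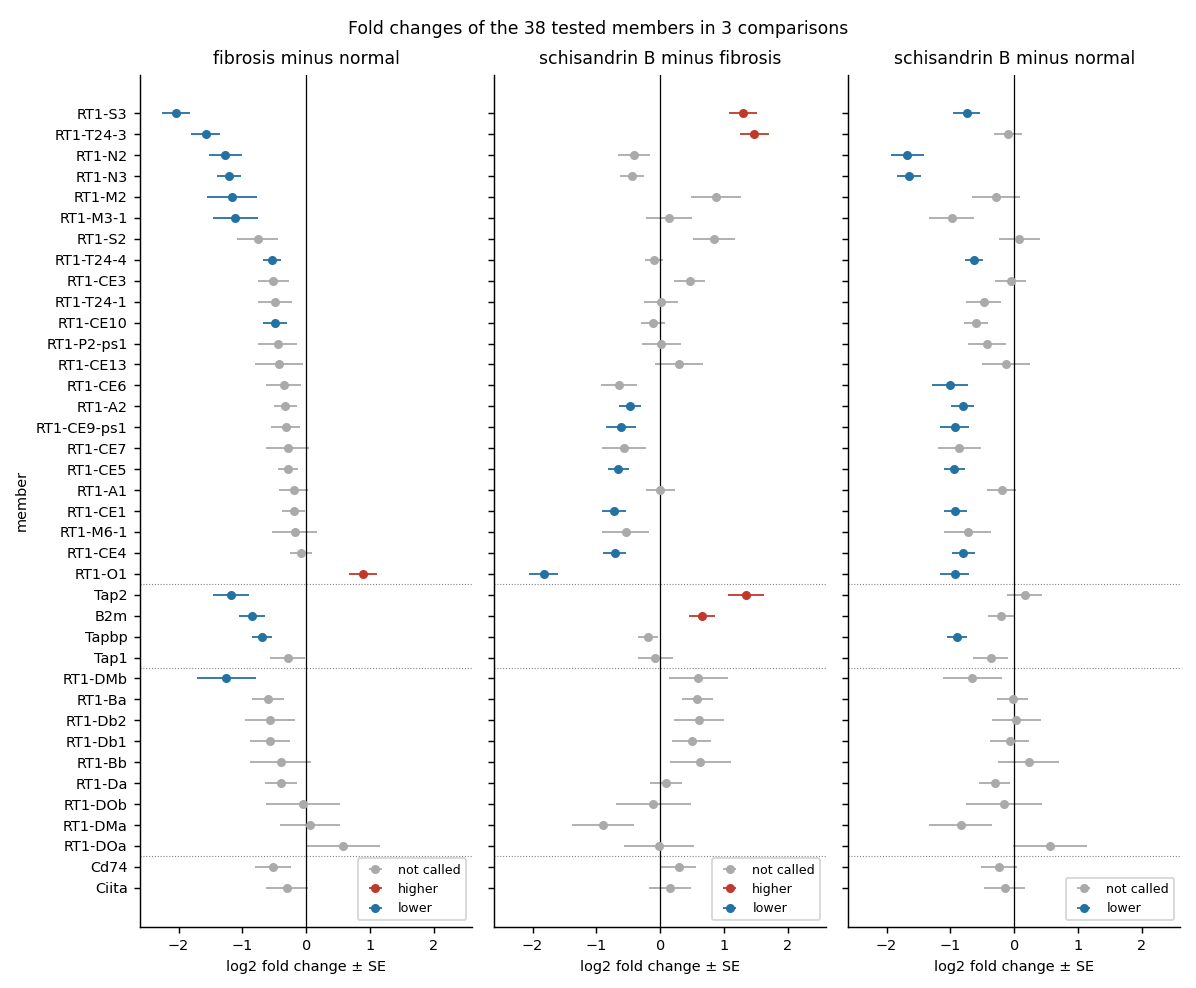
Log2 fold change ± SE of the 38 tested members in fibrosis against normal, schisandrin B against fibrosis and schisandrin B against normal; blue points are called lower, red higher and grey not called. In fibrosis against normal 12 members are blue and 1 is red, and in schisandrin B against normal 12 are blue.

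Schisandrin B against fibrosis asks what changed with the compound on top of CCl4. It shares the fibrosis libraries with the comparison above, so the values of the 2 comparisons are not independent and stand side by side only. In class I, RT1-S3 and RT1-T24-3 were higher while RT1-O1, RT1-A2 and 4 RT1-CE rows were lower. B2m and Tap2 were higher, and no class II row was called. Over all members 4 of 38 were higher and 6 lower, against 22.5% higher and 24.8% lower among all rows tested. The median log2 change was 0.00 over the members, -0.11 over class I and 0.49 over class II, beside -0.03 over all rows. The split was 6 higher and 4 lower with upper-quartile scaling and 3 higher and 9 lower with library totals, and the class I median was 0.02 with the former.

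Of the classical rows, RT1-A2 was called in schisandrin B and RT1-A1 was not. RT1-A2 had 530.2, 566 and 434 CPM in normal, 374, 425 and 418 CPM in fibrosis and 306, 291 and 279.7 CPM in schisandrin B. RT1-A1 had 145, 124 and 97.2 CPM in normal, 141, 95.7 and 83.4 CPM in fibrosis and 115, 96.5 and 108 CPM in schisandrin B. The 3 groups of RT1-A2 did not overlap, with schisandrin B lowest, and those of RT1-A1 did. RT1-A2 was lower in schisandrin B than in fibrosis by -0.47 ± 0.18 (log2, SE; edgeR adjusted p = 0.0471) and than in normal by -0.81 ± 0.18 (edgeR adjusted p = 0.0165), and fibrosis against normal gave -0.33 ± 0.18 (edgeR adjusted p = 0.149). RT1-A1 gave 0.00 ± 0.22 (edgeR adjusted p = 0.995), -0.20 ± 0.22 (edgeR adjusted p = 0.629) and -0.20 ± 0.22 (edgeR adjusted p = 0.494) in the same order. Only 4 of 14 alternative fits kept the RT1-A2 call against fibrosis. It was lost with DESeq2 size factors, upper-quartile scaling, either other filter and a fit of the 2 groups (edgeR adjusted p 0.0558 to 0.134), and without fibrosis 2 or 3 or any schisandrin B library (0.0770 to 0.144). The call against normal was lost with library totals (edgeR adjusted p = 0.0534) and without normal 1 or 2 or any schisandrin B library (0.0533 to 0.0800).

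Of the 9 RT1-CE rows, RT1-CE1, RT1-CE4, RT1-CE5 and RT1-CE9-ps1 were lower in schisandrin B than in fibrosis. RT1-CE5 had 213, 245 and 249 CPM in normal, 194, 187 and 198 CPM in fibrosis and 110.2, 132 and 126 CPM in schisandrin B. RT1-CE1 had 71.3, 66.9 and 58.0 CPM in normal, 64.1, 59.3 and 47.9 CPM in fibrosis and 41.6, 31.0 and 30.9 CPM in schisandrin B. RT1-CE4 had 67.0, 64.9 and 52.8 CPM in normal, 66.7, 57.7 and 50.1 CPM in fibrosis and 40.04, 35.0 and 31.2 CPM in schisandrin B. In all 3 rows every schisandrin B library lay below every other library, and fibrosis and normal overlapped in RT1-CE1 and RT1-CE4. The difference from fibrosis was -0.66 ± 0.16 for RT1-CE5 (log2, SE; edgeR adjusted p = 0.00641), -0.73 ± 0.18 for RT1-CE1 (edgeR adjusted p = 0.00692) and -0.72 ± 0.18 for RT1-CE4 (edgeR adjusted p = 0.00608). RT1-CE5 missed the threshold without schisandrin B 1 (edgeR adjusted p = 0.0508).

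RT1-CE9-ps1, a pseudogene by its symbol, averaged 118 ± 25.6, 94.6 ± 18.6 and 61.8 ± 12.7 CPM (SD, n = 3) and was lower in schisandrin B than in fibrosis by -0.61 ± 0.23 (log2, SE; edgeR adjusted p = 0.0447). That call was lost without fibrosis 2 or 3 or any schisandrin B library (edgeR adjusted p 0.0583 to 0.222), and with DESeq2 size factors, upper-quartile scaling, the 5 CPM filter or only the 2 groups fitted (0.0511 to 0.102). RT1-CE7, at 72.1 ± 22.2, 58.9 ± 24.7 and 39.8 ± 14.2 CPM, and RT1-CE6, at 7.38 ± 0.74, 5.79 ± 1.46 and 3.70 ± 0.87 CPM, were not called against fibrosis. RT1-CE3, at 18.4 ± 2.03, 12.9 ± 3.14 and 17.6 ± 4.67 CPM, and RT1-CE13, at 8.07 ± 1.12, 6.02 ± 1.13 and 7.41 ± 4.70 CPM, were called in no comparison by the edgeR fit of all libraries (SD, n = 3 throughout). RT1-CE3 was called lower in fibrosis with upper-quartile scaling (edgeR adjusted p = 0.0424) and without fibrosis 1 (0.0468), and RT1-CE6 lower in schisandrin B than in fibrosis with library totals (0.0242). RT1-CE10 averaged 106 ± 12.2 CPM in schisandrin B, within the range of fibrosis.

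Schisandrin B against normal shows what differed at the end of the combined course, and it shares libraries with both comparisons above. Here 11 of 23 class I rows and Tapbp were lower, and no member was higher. That is 12 of 38 members lower, against 5.25% lower and 5.25% higher among all rows tested. The median log2 change was -0.46 over the members, -0.75 over class I, -0.86 over the RT1-CE rows and -0.08 over class II, beside 0.00 over all rows. At an unadjusted edgeR p under 0.05, 0 members were higher and 15 lower, and DESeq2 gave 0 and 13 and limma voom 0 and 12 after adjustment. The number of lower members was 6 with library totals and between 5 and 8 when any 1 of the 6 libraries was left out.

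The calls against normal that held in every alternative fit were RT1-N2, RT1-N3, RT1-CE5 and Tapbp. RT1-CE5 was lower by -0.94 ± 0.17 (log2, SE; edgeR adjusted p = 0.00463). RT1-CE1 was lower by -0.92 ± 0.18 (edgeR adjusted p = 0.00958), RT1-CE4 by -0.80 ± 0.18 (edgeR adjusted p = 0.0162), RT1-CE9-ps1 by -0.94 ± 0.23 (edgeR adjusted p = 0.0251) and RT1-CE6 by -1.003 ± 0.28 (edgeR adjusted p = 0.0429). Left-out libraries ended the call of RT1-CE1 for 2 (schisandrin B 2 and 3), RT1-CE4 for 4 (the same and normal 1 and 2), RT1-CE9-ps1 for 5 (all but normal 1), RT1-CE6 for all 6, and RT1-T24-4 for 3 (normal 3, schisandrin B 1 and 2), at edgeR adjusted p from 0.0532 to 0.165. RT1-CE10 missed the threshold at -0.60 ± 0.18 (edgeR adjusted p = 0.0585), with all schisandrin B libraries below all normal ones, and was called by DESeq2 (adjusted p = 0.0230) and with only the 2 groups fitted (edgeR adjusted p = 0.0164). With library totals RT1-CE6, RT1-CE9-ps1, RT1-T24-4, RT1-S3 and RT1-O1 also missed the threshold against normal (edgeR adjusted p 0.0508 to 0.115).

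In class II the only edgeR call of the 3 comparisons was that of RT1-DMb in fibrosis. RT1-Ba and RT1-Bb encode the chains of the RT1-B molecule, the counterpart of human HLA-DQ. RT1-Ba had 103, 89.6 and 55.6 CPM in normal, 62.6, 41.8 and 59.0 CPM in fibrosis and 93.1, 66.6 and 84.3 CPM in schisandrin B. RT1-Bb had 91.1, 48.6 and 30.4 CPM in normal, 71.6, 24.4 and 33.1 CPM in fibrosis and 92.8, 45.5 and 60.3 CPM in schisandrin B. The groups overlapped in RT1-Bb, and in RT1-Ba all schisandrin B libraries lay above all fibrosis libraries. RT1-Ba gave -0.60 ± 0.25 in fibrosis against normal (log2, SE; edgeR adjusted p = 0.0619) and 0.58 ± 0.25 in schisandrin B against fibrosis (edgeR adjusted p = 0.0731). RT1-Ba passed in fibrosis without normal 3 or fibrosis 1 (edgeR adjusted p 0.0160 to 0.0433) with upper-quartile scaling (0.0365) and by DESeq2 (0.0472). RT1-Bb gave -0.40 ± 0.48 (edgeR adjusted p = 0.518) and 0.62 ± 0.48 (edgeR adjusted p = 0.313).

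RT1-Da, RT1-Db1 and RT1-Db2 encode chains of the RT1-D molecule, the counterpart of HLA-DR. RT1-Da had 165, 109 and 92.4 CPM in normal, 110.4, 73.3 and 94.0 CPM in fibrosis and 117, 79.4 and 99.5 CPM in schisandrin B. RT1-Db1 had 97.0, 61.1 and 45.7 CPM in normal, 59.2, 34.7 and 43.4 CPM in fibrosis and 81.2, 45.4 and 66.8 CPM in schisandrin B. The groups overlapped in both, and in RT1-Db2, which averaged 5.29 ± 2.11, 3.54 ± 1.65 and 5.44 ± 1.38 CPM (SD, n = 3). Fibrosis against normal gave -0.40 ± 0.25 for RT1-Da (log2, SE; edgeR adjusted p = 0.203), -0.57 ± 0.31 for RT1-Db1 (edgeR adjusted p = 0.148) and -0.57 ± 0.39 for RT1-Db2 (edgeR adjusted p = 0.246).

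RT1-DMa and RT1-DMb form the exchange factor that removes the invariant chain fragment from class II. RT1-DMb had 12.0, 14.3 and 7.85 CPM in normal, 5.10, 4.84 and 4.40 CPM in fibrosis and 13.8, 2.99 and 5.11 CPM in schisandrin B. The normal and fibrosis libraries did not overlap, and schisandrin B spanned both. Its fall in fibrosis was -1.25 ± 0.47 (log2, SE; edgeR adjusted p = 0.0442), and it was lost without normal 1 or 2 or any fibrosis library (edgeR adjusted p 0.0967 to 0.133), with library totals (0.169) and without the filter (0.0653). RT1-DMa, at 5.27 ± 2.48, 5.47 ± 2.49 and 2.94 ± 1.33 CPM (SD, n = 3), gave 0.06 ± 0.47 (edgeR adjusted p = 0.926). RT1-DOb, a chain of the DM inhibitor, averaged 1.01 ± 0.38, 0.98 ± 0.19 and 0.90 ± 0.73 CPM (SD, n = 3). RT1-DOa, its partner chain, had 23, 38 and 30 counts in the 3 groups.

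The invariant chain Cd74 had 426, 309.7 and 231 CPM in normal, 279, 157 and 237 CPM in fibrosis and 339.8, 222 and 258 CPM in schisandrin B. Ciita had 8.93, 8.94 and 4.86 CPM in normal, 7.61, 6.36 and 4.52 CPM in fibrosis and 9.27, 5.69 and 5.57 CPM in schisandrin B. All groups overlapped for both genes. Fibrosis against normal gave -0.52 ± 0.28 for Cd74 (log2, SE; edgeR adjusted p = 0.145) and -0.30 ± 0.32 for Ciita (edgeR adjusted p = 0.462). Schisandrin B against fibrosis gave 0.28 ± 0.28 for Cd74 (edgeR adjusted p = 0.429) and 0.15 ± 0.33 for Ciita (edgeR adjusted p = 0.729). Against normal the values were -0.24 ± 0.28 for Cd74 (edgeR adjusted p = 0.646) and -0.15 ± 0.33 for Ciita (edgeR adjusted p = 0.818).

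For class II, edgeR called no row higher in fibrosis, and none either way in schisandrin B against fibrosis or normal. Exceptions among the alternatives were RT1-Ba, higher in schisandrin B than in fibrosis by 0.70 with upper-quartile scaling (edgeR adjusted p = 0.0397), and RT1-DMb, lower in schisandrin B than in normal by -1.49 without schisandrin B 1 (edgeR adjusted p = 0.0367). At an unadjusted edgeR p under 0.05 the counts, higher then lower, were 0 and 2 in fibrosis against normal, 1 and 0 in schisandrin B against fibrosis, and 0 and 0 in schisandrin B against normal. DESeq2 gave 0 and 2, 0 and 0, and 0 and 0, and limma voom gave 0 and 1, 0 and 0, and 0 and 0.

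Within each group the same libraries were highest or lowest in most class II rows. Normal 1 had the highest level in 6 of the 9 tested class II rows and normal 3 the lowest in 7. Fibrosis 1 was highest in 6 and fibrosis 2 lowest in 6, and schisandrin B 1 was highest in 6 and schisandrin B 2 lowest in 7. Such a tendency was not particular to class II. Of the 23 tested class I rows, normal 3 was lowest in 14, fibrosis 1 highest in 13 and fibrosis 3 lowest in 14. Schisandrin B 1 was highest in 10 of them and lowest in 9. The sum of 4 pan-leukocyte markers (Ptprc, Cd52, Coro1a and Laptm5) was 100.2, 85.3 and 69.3 CPM in normal, 84.4, 43.1 and 48.5 CPM in fibrosis and 76.9, 56.4 and 63.6 CPM in schisandrin B, the same order of libraries within each group as the class II sum. The Kupffer cell, B cell, dendritic cell and T and NK cell sums, given below, were instead highest in normal 2 (2399, 35.96, 22.8 and 158 CPM). Within fibrosis and within schisandrin B they had the library order of the class II sum, except for the B cell sum. The part of leukocyte content in the class II spread was not tested.

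Markers of immune cells and other liver cell types were also counted by group. The B cell sum (8 genes) was 26.2 to 35.96 CPM in normal, 6.28 to 11.3 in fibrosis and 12.5 to 19.4 in schisandrin B, mostly from Cd22, while Cd79a had 1, 1 and 0 counts and Pax5 0, 2 and 1 counts in the 3 groups. In fibrosis 3 of 4 tested B cell markers fell, where 22.9% of all rows tested were lower. The T and NK cell sum (12 genes, mostly Cd4) was 115 to 158, 56.8 to 102 and 73.5 to 105 CPM in the same order, with 8 of 9 tested markers falling in fibrosis. Cd4 alone averaged 103, 68.2 and 67.4 CPM, while Cd3e averaged 1.46, 0.569 and 1.18 CPM. The sum thus mostly reports Cd4 and is no measure of T and NK cell content. The Kupffer cell sum (11 genes, led by Clec4f, C1qc and C1qb) was 1562 to 2399, 928 to 1929 and 945 to 1457 CPM, with 2 of 11 falling, a share near that of all rows, and the dendritic cell sum (9 genes) was 19.6 to 22.8, 13.7 to 24.9 and 13.9 to 21.8 CPM. Of 7 endothelial markers 4 fell in fibrosis (sum 356 to 480, 256 to 312 and 326 to 358 CPM) and 5 of 7 hepatocyte markers fell. Among 4 tested cholangiocyte markers, Epcam and Krt19 rose (sum 19.4 to 24.9, 50.8 to 63.1 and 12.5 to 27.3 CPM), where 25.4% of all rows were higher. The stellate cell sum (6 genes, mostly Col3a1) was 194 to 311, 199 to 376 and 394 to 539 CPM, and in fibrosis its markers Acta2 and Des rose while Lrat fell, from means of 13.7 to 1.24 CPM. The part of these cell types in the class I and class II values was not tested.

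The remaining tested class I rows, RT1-S2, RT1-M6-1, RT1-P2-ps1 and RT1-T24-1, were called in no comparison by the edgeR fit of all libraries. RT1-S2 averaged 4.57 ± 0.67, 2.68 ± 0.40 and 4.81 ± 1.85 CPM (SD, n = 3), and its difference between schisandrin B and fibrosis was 0.84 ± 0.33 (log2, SE; edgeR adjusted p = 0.0526). RT1-M6-1 averaged 4.82 ± 1.85, 4.25 ± 1.63 and 2.90 ± 0.32 CPM (SD, n = 3). RT1-P2-ps1 averaged 24.9 ± 8.86, 18.3 ± 3.87 and 18.5 ± 6.02 CPM (SD, n = 3), and RT1-T24-1 16.8 ± 6.02, 11.9 ± 0.78 and 12.0 ± 2.92 CPM (SD, n = 3). RT1-S2 was called higher in schisandrin B than in fibrosis by DESeq2 (adjusted p = 0.0353), by edgeR with DESeq2 size factors (0.0473) or upper-quartile scaling (0.0362), and by edgeR without schisandrin B 1 (0.0157).

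Among the untested members, RT1-M4 and RT1-M5 were counted almost wholly in fibrosis. RT1-M4 had 2 counts in normal, 40 in fibrosis (4, 13 and 23 by library) and 0 in schisandrin B. RT1-M5 had 1 count in normal, 25 in fibrosis (5, 8 and 12 by library) and 1 in schisandrin B. Every fibrosis library thus had more counts than any other library for both rows. The pooled ratio of fibrosis to normal was 18.2 for RT1-M4 (95% counting interval 4.72 to 155) and 22.7 for RT1-M5 (3.72 to 934). Schisandrin B was at least 3.41-fold lower than fibrosis for RT1-M4, with 3 counts per library set as its floor, and the ratio of fibrosis to schisandrin B for RT1-M5 was 20.6 (3.38 to 847). Without the filter on low counts, over 24639 rows, edgeR adjusted p was 0.00422 for RT1-M4 and 0.00962 for RT1-M5 in fibrosis against normal, and 0.000791 and 0.0127 in schisandrin B against fibrosis. These 2 rows were singled out after their values were seen, and intervals and floors cover counting error only.

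The other untested members with counts had a group mean of at most 0.365 CPM, reached by RT1-T18 with 13, 16 and 10 counts in normal, fibrosis and schisandrin B. RT1-V2-ps1 had 9, 8 and 2 counts, RT1-M6-2 had 6, 7 and 1, RT1-M1-2 had 6, 1 and 4, and RT1-Hb-ps1 had 1, 7 and 0. RT1-M3-2-ps, RT1-O2-ps, RT1-M10-1, RT1-M10-2-ps and RT1-T24-2 had at most 3 counts in any group. The rows with 0 counts were RT1-Ha, RT1-M1-1-ps, RT1-M1-3-ps, RT1-M1-4, RT1-M1-5, RT1-M10-3-ps, RT1-M10-4-ps, RT1-M3-3-ps, RT1-M7-ps and RT1-M8-ps.

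Genes that feed class I outside the RT1 rows included the immunoproteasome and its PA28 activator, which cut peptides suited to class I. All 5 listed genes (Psmb8, Psmb9, Psmb10, Psme1 and Psme2) fell in fibrosis, where 22.9% of all rows tested were lower. Their median log2 change was -1.89. Psmb9 had 84.0, 67.1 and 62.0 CPM in normal, 16.0, 11.7 and 11.2 CPM in fibrosis and 60.4, 34.5 and 34.8 CPM in schisandrin B. Psmb8 had 162, 101 and 85.2 CPM in normal, 35.7, 31.9 and 26.1 CPM in fibrosis and 50.7, 29.0 and 31.2 CPM in schisandrin B. Schisandrin B libraries lay between the other groups for Psmb9 and overlapped fibrosis for Psmb8. Psmb9 fell in fibrosis by -2.46 ± 0.26 (log2, SE; edgeR adjusted p = 2.38e-05) and was higher in schisandrin B than in fibrosis by 1.74 ± 0.26 (edgeR adjusted p = 0.000239). Psmb8 fell by -1.89 ± 0.28 (edgeR adjusted p = 0.000255), and schisandrin B gave 0.24 ± 0.28 against fibrosis (edgeR adjusted p = 0.497) and -1.65 ± 0.28 against normal (edgeR adjusted p = 0.00404).

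Psmb10 averaged 90.8 ± 21.5, 22.3 ± 2.74 and 32.5 ± 4.32 CPM (SD, n = 3) and fell in fibrosis by -2.02 ± 0.21 (log2, SE; edgeR adjusted p = 2.11e-05). It was higher in schisandrin B than in fibrosis by 0.54 ± 0.20 (edgeR adjusted p = 0.0462). Psme1, a PA28 subunit, averaged 249 ± 40.2, 118 ± 13.7 and 146 ± 18.5 CPM (SD, n = 3) and fell by -1.08 ± 0.19 (edgeR adjusted p = 0.000751). In schisandrin B against normal, Psmb8, Psmb10 and Psme1 were lower and Psmb9 and Psme2 did not pass the test. Without schisandrin B 1, Psmb9 did pass, lower by -1.03 (edgeR adjusted p = 0.0271). The higher Psmb10 in schisandrin B was lost when any library but fibrosis 2 was left out (edgeR adjusted p 0.0527 to 0.114), and the lower Psme1 against normal when any but normal 2 was (0.0659 to 0.115). With library totals Psmb10 gave 0.27 (edgeR adjusted p = 0.311), and the Psme1 call was lost as well (0.0685). Psmb10 also missed the threshold without the filter (edgeR adjusted p = 0.0709) and by limma voom (adjusted p = 0.0525). Without normal 1 or fibrosis 3, and with library totals, the fall of Psme2 missed the threshold (0.0762 to 0.117).

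**Figure D5:**
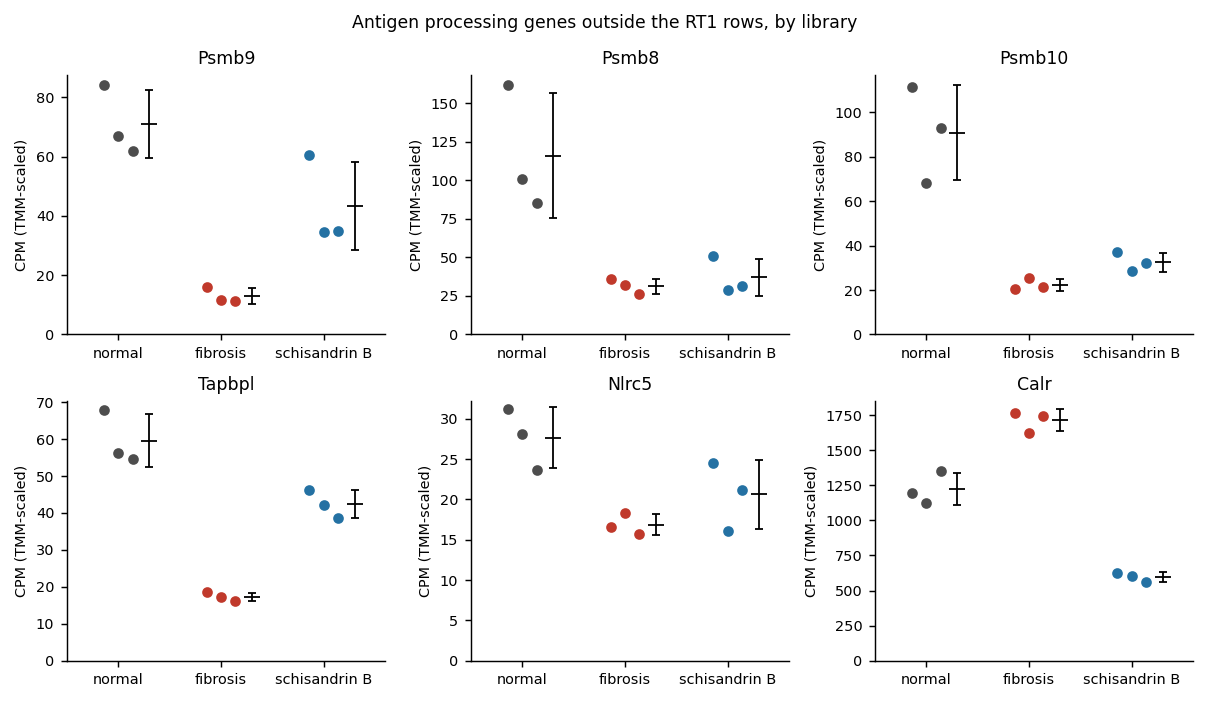
CPM of Psmb9, Psmb8, Psmb10, Tapbpl, Nlrc5 and Calr in each library; points are libraries, and the dash with its bar is the mean ± SD. The 3 fibrosis libraries are below all normal libraries in every panel but Calr, where they are highest and schisandrin B lowest.

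The loading complex and trimming list, which also takes in other endoplasmic reticulum genes and Nlrc5, held 9 tested genes. Of these, 5 rose and 3 fell in fibrosis (6 and 1 with library totals). Over all rows tested 25.4% were higher and 22.9% lower. Tapbpl, a tapasin-like editor of class I peptides, had 67.8, 56.2 and 54.7 CPM in normal, 18.5, 17.2 and 16.3 CPM in fibrosis and 46.4, 42.3 and 38.7 CPM in schisandrin B. The groups did not overlap. Tapbpl fell by -1.78 ± 0.16 (log2, SE; edgeR adjusted p = 1.05e-05) and was higher in schisandrin B than in fibrosis by 1.29 ± 0.16 (edgeR adjusted p = 8.55e-05). Erap1, which trims peptides in the endoplasmic reticulum, and Nlrc5, the class I transactivator, were the other 2 that fell. Nlrc5, named outside the rule for its role after its values were seen, had 31.2, 28.1 and 23.6 CPM in normal, 16.6, 18.3 and 15.7 CPM in fibrosis and 24.6, 16.1 and 21.2 CPM in schisandrin B. It fell by -0.71 ± 0.19 (edgeR adjusted p = 0.0100), with 0.29 ± 0.19 in schisandrin B against fibrosis (edgeR adjusted p = 0.249). With library totals the fall of Nlrc5 missed the threshold (edgeR adjusted p = 0.289), as did that of Erap1 (0.126).

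The 5 that rose in fibrosis were chaperones and membrane proteins of the endoplasmic reticulum: Hspa5, Pdia4, Sec61a1, Canx and Calr. Hspa5, the chaperone BiP, had 694, 639 and 694 CPM in normal, 10557, 5702 and 5193 CPM in fibrosis and 734, 757 and 528 CPM in schisandrin B. Every fibrosis library was far above all others, and the other groups overlapped. Hspa5 rose by 3.40 ± 0.31 (log2, SE; edgeR adjusted p = 1.01e-05) and was lower in schisandrin B than in fibrosis by -3.41 ± 0.31 (edgeR adjusted p = 1.25e-05). Calreticulin (Calr) averaged 1222 ± 115, 1713 ± 77.0 and 597 ± 33.6 CPM (SD, n = 3), rose in fibrosis by 0.49 ± 0.18 (edgeR adjusted p = 0.0430) and was lower in schisandrin B than in fibrosis by -1.52 ± 0.18 (edgeR adjusted p = 6.92e-05). Pdia4, a disulfide isomerase, rose by 1.15 ± 0.23 (edgeR adjusted p = 0.00191) and was lower in schisandrin B than in fibrosis by -2.02 ± 0.24 (edgeR adjusted p = 6.39e-05). In schisandrin B against fibrosis 6 of the 9 were lower (Hspa5, Calr, Pdia4, Sec61a1, Canx and Pdia3) and Tapbpl was higher. Over all rows tested 24.8% were lower and 22.5% higher in that comparison. The rise of Calr in fibrosis was lost without any normal library, fibrosis 1 or fibrosis 3 (edgeR adjusted p 0.0554 to 0.138) and with DESeq2 size factors (0.0575), upper-quartile scaling (0.0891), no filter (0.0587) or only the 2 groups fitted (0.105), and that of Canx without normal 3 (0.0653).

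Of the interferon gamma signalling genes, which act upstream of both classes, the receptor chain Ifngr2 fell in fibrosis, and Ifng itself had 1 count in all libraries together. Ifngr2 had 52.1, 30.6 and 44.2 CPM in normal, 23.96, 21.3 and 30.7 CPM in fibrosis and 14.4, 15.7 and 21.5 CPM in schisandrin B. Fibrosis 3 and normal 2 were at the same level, and all schisandrin B libraries lay below all normal ones. Ifngr2 fell by -0.74 ± 0.24 in fibrosis (log2, SE; edgeR adjusted p = 0.0222) and was below normal in schisandrin B by -1.30 ± 0.24 (edgeR adjusted p = 0.00630). Jak2, at -0.94 ± 0.21 (edgeR adjusted p = 0.00317), and Irf1, at -0.70 ± 0.26 (edgeR adjusted p = 0.0454), were lower in schisandrin B than in fibrosis. The Ifngr2 fall missed the threshold without normal 1, normal 3 or fibrosis 2 and with library totals (edgeR adjusted p 0.0627 to 0.372), and the Irf1 difference without fibrosis 1 or 2 or schisandrin B 2 or 3 (0.106 to 0.160). Irf1 was also lost with DESeq2 size factors, upper-quartile scaling, the 5 CPM filter or only the 2 groups fitted (edgeR adjusted p 0.0506 to 0.0840). By limma voom it missed the threshold too (adjusted p = 0.0666).

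The class II processing and regulation list showed 4 of 13 tested genes higher and 2 lower in fibrosis (5 and 1 with library totals), shares near the 25.4% and 22.9% over all rows. Ctsl, the lysosomal protease cathepsin L, had 758, 869 and 960.1 CPM in normal, 8822, 2806 and 3738 CPM in fibrosis and 730.04, 887 and 1112 CPM in schisandrin B, with every fibrosis library above all others. It rose by 2.57 ± 0.39 (log2, SE; edgeR adjusted p = 0.000280) and was lower in schisandrin B than in fibrosis by -2.49 ± 0.39 (edgeR adjusted p = 0.000371). Of the factors that bind class II promoters, Rfx5, Nfya and Nfyb rose in fibrosis and Rfxank fell, by -1.21 ± 0.27 (edgeR adjusted p = 0.00298). The reductase Ifi30 also fell, by -0.59 ± 0.15 (edgeR adjusted p = 0.00787). In schisandrin B against fibrosis Rfxank was higher, by 1.19 ± 0.27 (edgeR adjusted p = 0.00340), and Rfx5, Nfya, Nfyb and Ctsl were lower (3 higher and 4 lower with upper-quartile scaling). Leaving out a library ended the fibrosis call of Rfx5 for normal 1 and 2 and fibrosis 2 and 3, of Nfya for normal 1 and 2 and fibrosis 1 and 2, and of Nfyb for normal 2 and 3 (edgeR adjusted p 0.0538 to 0.136). With only the 2 groups fitted the rises of Rfx5 and Nfya were lost too (edgeR adjusted p = 0.0536 and 0.0650), as was that of Nfya with upper-quartile scaling (0.0606). The fall of Ifi30 missed the threshold with library totals (edgeR adjusted p = 0.469). The costimulation genes Cd86, Cd40 and Cd274 were called in no comparison by the edgeR fit of all libraries. Of these 3, limma voom called Cd274 lower in fibrosis and DESeq2 called none, and at an unadjusted edgeR p under 0.05 the count was 1, lower in schisandrin B against normal. Cd274 was lower in fibrosis by -1.72 without fibrosis 1 (edgeR adjusted p = 0.000483). With only the 2 groups fitted it was lower in schisandrin B than in normal by -1.10 (edgeR adjusted p = 0.00737).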

How the data were processed

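Liver RNA was sequenced on the Ion Proton platform. The values the authors deposited are unnormalized whole-number counts for each gene row, with 3 libraries in each of 3 groups. The submitters' processing notes name the mouse build GRCm38, while the labels' strain and the symbols in the table are rat. No source used here gives the aligner, the counter or the annotation, so rows are reported by symbol, with no sequences or positions.

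Testing used edgeR 4.0.16 in R 4.3.3 (filterByExpr, TMM, robust quasi-likelihood fit of all 9 libraries, Benjamini-Hochberg adjustment over 14581 rows, threshold 0.05). SE is the log2 change divided by the root of F. Alternatives were DESeq2 1.42.0, limma 3.58.1 voom, other scalings and filters, 2-group fits and each library left out. On simulated data over 14581 genes, 4-fold changes were recovered in 81.4%, 70.4% and 75.3% of cases and 2-fold changes in 29.6%, 23.5% and 17.5% (fibrosis against normal, schisandrin B against fibrosis, schisandrin B against normal). Few genes were changed in the simulation, which called 113, 97 and 95 rows, against 7041, 6895 and 1531 in the data. Its adjustment was therefore stricter, so these rates cannot be read as the share of changes found in the data.

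Members with a mean of at least 1 CPM in any group were named with values, plus up to 4 genes per pathway list by lowest adjusted p and up to 3 per marker list by level. The members and lists were chosen with earlier results of these data known. Library numbers run on across groups and pair nothing. One listed pathway gene is not reported here.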

Additional observations from a re-analysis of the deposited data

How the results depend on the processing

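Over 1533 values of single members under the alternatives, 1331 kept sign and side of the threshold, 94 lost a call, 19 gained one, 89 uncalled ones changed sign and 0 called ones reversed. RT1-N2, RT1-N3, RT1-O1, RT1-S3 and RT1-T24-3 in fibrosis against normal, and RT1-CE1, RT1-CE4, RT1-O1, RT1-S3, RT1-T24-3 and Tap2 in schisandrin B against fibrosis, were called in every alternative run. Over 1578 values of the pathway genes, 1405 kept sign and side of the threshold, 76 lost a call, 24 gained one and 73 uncalled ones changed sign. Library totals gave 4 members lower in fibrosis against normal (12 with TMM) and 6 lower in schisandrin B against normal (12 with TMM), and 13, 5 and 6 of 37 named members, none called, changed sign in the 3 comparisons. Of all rows called, the share that was higher moved with library totals from 52.7% to 74.7% in fibrosis against normal, from 47.6% to 32.6% in schisandrin B against fibrosis and from 50.0% to 70.3% in schisandrin B against normal. The class I sum changed with library totals by -0.27, -0.36 and -0.63 log2 in the 3 comparisons (-0.69, -0.09 and -0.79 with TMM), and with upper-quartile scaling by -0.80 in the first and 0.036 in the second. Members called higher in fibrosis numbered 3 without the filter and 1 to 2 with 1 library left out (1 otherwise), and members lower in schisandrin B against normal 5 to 8 with 1 left out. All rows called in schisandrin B against normal numbered 1531, 2951 when only those groups were fitted and 702 to 1004 with 1 library left out. No paired analysis was possible because the library numbers in the labels are not shared between groups. The filter on low counts left 22 members untested, 10 of them with 0 counts in all 9 libraries.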
